A study of Mus musculus with 32 samples.

Results

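The genes described here encode 9 receptor chains for cytokines of the IL-6, IL-12, IL-18, IL-33, IL-27 and IL-10 families, namely Il1rl1, Il18r1, Il18rap, Il12rb1, Il12rb2, Il6ra, Il6st, Il27ra and Il10ra. They were taken by their gene symbol from a table of 16741 genes, and each of the 9 symbols matched 1 named row. The table holds normalised RNA counts of 31 libraries of T cells sorted from mouse spleen and lymph nodes in a model of acute graft-versus-host disease (GVHD), in which T cells of a C57Bl6 (Bl6) donor attack a Balb/c host across a major histocompatibility mismatch. The study set donor cells from recipients that were given regulatory T cells (Treg) on day 0 against cells from recipients that were not.

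The libraries fall into 10 groups. Before transplantation (day 0) there are 2 libraries each of donor CD4 conventional T cells, donor CD8 conventional T cells and donor Treg. After transplantation there are 4 libraries each of donor CD4 and CD8 cells from allogeneic recipients that had GVHD and were otherwise untreated, and 4 each from allogeneic recipients that had GVHD and were given Treg (Treg-treated). There are 3 libraries of Treg sorted from Treg-treated recipients, and 3 each of CD4 and CD8 cells from untreated recipients of the syngeneic control transplant. The sample titles date the cells after transplantation to day 6, whereas the text on the whole series says 8 days. The age and sex of the mice, the conditioning, the Treg dose, the sort markers and whether the Treg taken from recipients were those infused are not given in the sources used here. The labels carry the prefix JL019 or JL027 and a recipient number, and they do not say what the prefixes mark or whether replicates are separate animals, so that the p-values measure the spread between these libraries. Values are listed in the order JL019-1, JL019-2, JL027-1, JL027-2 for groups of 4, JL019-1, JL019-2, JL027 for groups of 3, and JL019, JL027 for groups of 2.

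The cytokine receptors work as pairs of chains. The IL-12 receptor joins IL-12Rβ1, which the IL-23 receptor shares, to IL-12Rβ2, and signals through JAK2, TYK2 and STAT4 toward interferon-γ production in T helper 1 and cytotoxic cells. The IL-6 receptor chain (Il6ra) and the IL-27 receptor chain (Il27ra) each join gp130 (Il6st) and signal through STAT3, and the IL-10 receptor chain (Il10ra) joins IL-10Rβ and signals through STAT3. The IL-18 receptor (Il18r1 with its accessory chain Il18rap) and ST2 (Il1rl1), the receptor of the alarmin IL-33, belong to the IL-1 receptor family and signal through MYD88. In naive T cells IL-6 receptor chains are known to be high and IL-12Rβ2 and ST2 low, whereas ST2 is known in a tissue-type subset of Treg, in type 2 helper cells and on alloreactive T cells.

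Values are normalised counts, whose means over all genes ran from 1227 to 2385 among the libraries; read depth cannot be recovered from them. In bulk RNA, fewer cells of a type and less RNA per cell cannot be told apart. The library JL019-2 of the CD4 syngeneic group stood apart by its marker genes. Its summed T cell markers (7 of 7 in the table) were at 47288 against 111650 and 116802 in the other libraries of its group, its summed myeloid markers (14 of 14) reached 3723940, and its most abundant gene was S100a8. Changes of CD4 cells against or within the syngeneic group are given with and without it. The Treg-treated libraries JL027-1 of CD4 and JL019-2 of CD8 cells also differed from the rest of their groups in several receptors, as given with the effect of Treg. Markers of other cells moved with the conditions in other libraries as well. Myeloid sums were at 3089 to 4336 in CD4 cells at day 0, 82912 and 89560.1 in the other CD4 syngeneic libraries and 9255 to 16386 in allogeneic ones. In CD8 cells they were at 6644 to 9145 at day 0, 42779 to 69070.2 in syngeneic and 13849 to 19709 in allogeneic recipients. From day 0 to syngeneic CD8 cells the B cell sums (9 of 11) went from 58061 to 67791 to 23311 to 28776 and the erythroid sums (8 of 8) from 31729.8 to 35897 to 3332 to 11152. Allogeneic CD8 cells had B cell sums of 10366 to 12241 and erythroid sums of 579.7 to 14826. In CD4 cells the B cell sums were at 38530 to 43760.5 at day 0 and 13351 to 17471 in allogeneic recipients. They were at 25013 and 21080 in the syngeneic libraries other than JL019-2. Ighm made up most of the B cell sum at day 0, with means of 58442.5 in CD8 cells, 39162 in CD4 cells and 30298 in Treg. The part of these cells in the receptor changes was not tested. The Treg libraries of day 0 had summed Treg markers (6 of 6) of 58438 to 59927 against 10320.3 to 11055 in CD4 cells of day 0, although Foxp3, the defining transcription factor of Treg, was at 198 and 442 in the former and 1145 and 978 in the latter. Foxp3 thus went against the label at day 0, while the other markers followed it, and "Treg" below means the libraries labelled so. Treg of recipients had Foxp3 at 285, 265 and 293 and summed Treg markers of 110266 to 160794. Foxp3 was at 337 to 579 in allogeneic and 127 to 178 in Treg-treated CD4 cells. In CD8 cells it was at 103 to 453 and 109 to 236 in the same order.

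Il1rl1, Il18r1 and Il18rap are neighbours on chromosome 1, where RefSeq (GRCm38.p6; the submitters name GRCm38) places Il1rl1 at chr1:40404864-40465418, Il18r1 at chr1:40465552-40500854 and Il18rap at chr1:40515362-40551707. The other genes lie apart, with Il6ra at chr3:89869324-89913196, Il12rb2 at chr6:67285986-67376293, Il12rb1 at chr8:70808360-70823542, Il27ra at chr8:84030286-84042600, Il10ra at chr9:45253837-45269149 and Il6st at chr13:112464070-112506860. The annotated span of Il12rb2 shares 3317 bases with Serbp1, that of Il27ra 386 bases with Palm3 and that of Il6ra 18140 bases with the noncoding gene Gm46811, and whether counting used strand is not given in the sources used here. Promoter windows of up to 250 bases before an annotated start were available from RefSeq for 6 of the 9 genes. The windows of 4 genes with large shifts are shown, so that the letters before the starts of genes that rose (Il1rl1, Il18rap, Il12rb2) can be set beside those of one that fell (Il6ra); capitals mark matches to GATAAG, the core bound by GATA factors, or to TTCNNNGAA, the spaced palindrome bound by STAT factors, on either strand. TCACAC (T-box factors) and GGAAAA (NFAT) were also searched, and none of these motifs overlapped another in the windows shown.
Il1rl1, chr1:40429320-40429569 (+), inside the annotated gene and before a later start: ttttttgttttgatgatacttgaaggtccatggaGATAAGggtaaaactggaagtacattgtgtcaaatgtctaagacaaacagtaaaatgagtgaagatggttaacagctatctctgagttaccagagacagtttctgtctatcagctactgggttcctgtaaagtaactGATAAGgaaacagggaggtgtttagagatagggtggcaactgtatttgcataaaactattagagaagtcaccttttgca
Il12rb2, chr6:67376294-67376438 (-), the part of its window that lies before the whole gene: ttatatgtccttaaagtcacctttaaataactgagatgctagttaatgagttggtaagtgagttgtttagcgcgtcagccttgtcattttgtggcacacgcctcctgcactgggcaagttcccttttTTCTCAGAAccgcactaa
Il18rap, chr1:40515112-40515361 (+): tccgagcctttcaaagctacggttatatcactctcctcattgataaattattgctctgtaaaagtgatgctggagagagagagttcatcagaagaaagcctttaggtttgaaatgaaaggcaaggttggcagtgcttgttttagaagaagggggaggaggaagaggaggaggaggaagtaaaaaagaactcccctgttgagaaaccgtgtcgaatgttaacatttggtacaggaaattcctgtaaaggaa
Il6ra, chr3:89913197-89913446 (-): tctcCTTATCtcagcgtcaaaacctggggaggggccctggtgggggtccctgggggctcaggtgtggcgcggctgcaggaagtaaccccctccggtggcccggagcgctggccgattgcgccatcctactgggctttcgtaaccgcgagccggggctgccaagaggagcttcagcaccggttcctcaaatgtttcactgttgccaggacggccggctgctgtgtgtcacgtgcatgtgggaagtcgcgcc

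The Il1rl1 window shown held 2 GATAAG matches, at bases -216 to -211 and -79 to -74 from its start; the other Il1rl1 window in RefSeq, before a start further along the gene, had no match to any of the 4 motifs. Of 32851 mouse windows of the same length, 6.55% held at least 1 such match and 0.353% held 2 or more. The Il12rb2 window had a TTCNNNGAA match at -123 to -115 (7.02% of windows had one) and, in the part not printed, a TCACAC match at -80 to -75, the Il6ra window had a GATAAG match on the other strand at -246 to -241, and the Il18rap window had no match to any of the 4 motifs. TCACAC was in 12.3% and GGAAAA in 20.4% of windows. Of the 3 windows of Il18r1, which are not shown, 1 had 2 TTCNNNGAA matches, at -219 to -211 and -152 to -144 (0.317% of windows had 2 or more), and a GGAAAA match on the other strand at -33 to -28. A match describes letters only.

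The 9 receptors separated into 3 kinds of behaviour after allogeneic transfer. Both IL-12 receptor chains, both IL-18 receptor chains and ST2 were higher in donor T cells from allogeneic recipients than in the same cells at day 0, Il6ra and Il6st were lower, and Il27ra and Il10ra differed less. Against day 0, 7 of 9 receptors passed the test in CD4 cells (5 higher, 2 lower; 24% of all genes passed, 14.4% higher and 9.61% lower) and 8 of 9 in CD8 cells (5 higher, 3 lower; 30.4% of all genes, 16.3% higher and 14.2% lower). The test was limma on log2(normalised count + 1) with Benjamini-Hochberg adjustment over all 16741 genes at 0.05, and all adjusted p-values below are from it. Against the syngeneic control, 6 of 9 passed in CD4 cells (5 higher, 1 lower; 14.6% of all genes, 6.69% higher and 7.91% lower) with a median log2 change of 1.95, beside -0.0014 over all genes. Without the syngeneic library JL019-2, 7 passed (5 higher, 2 lower) and the median was 1.47, beside -0.011 over all genes. In CD8 cells 6 of 9 passed (4 higher, 2 lower; 21.1% of all genes, 10.4% higher and 10.7% lower), with a median of 0.89 beside 0.017. In syngeneic recipients, against day 0, 2 of 9 passed in CD4 cells (Il1rl1 and Il18rap, both higher; 13% of all genes, 9.9% higher) and 5 of 9 in CD8 cells (Il12rb1, Il12rb2 and Il18rap higher, Il1rl1 and Il6st lower; 24.2% of all genes, 13% higher and 11.3% lower). These syngeneic counts were not stable: leaving out 1 library gave 1 to 5 in CD4 cells (5 without syngeneic JL019-1, 1 without either day 0 library) and 1 to 4 in CD8 cells (1 without day 0 JL019; 3 without day 0 JL027 or either JL019 syngeneic library). Comparisons of allogeneic cells with day 0 and with syngeneic cells share the allogeneic libraries, so they are given side by side and not as independent evidence.

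**Figure D1:**
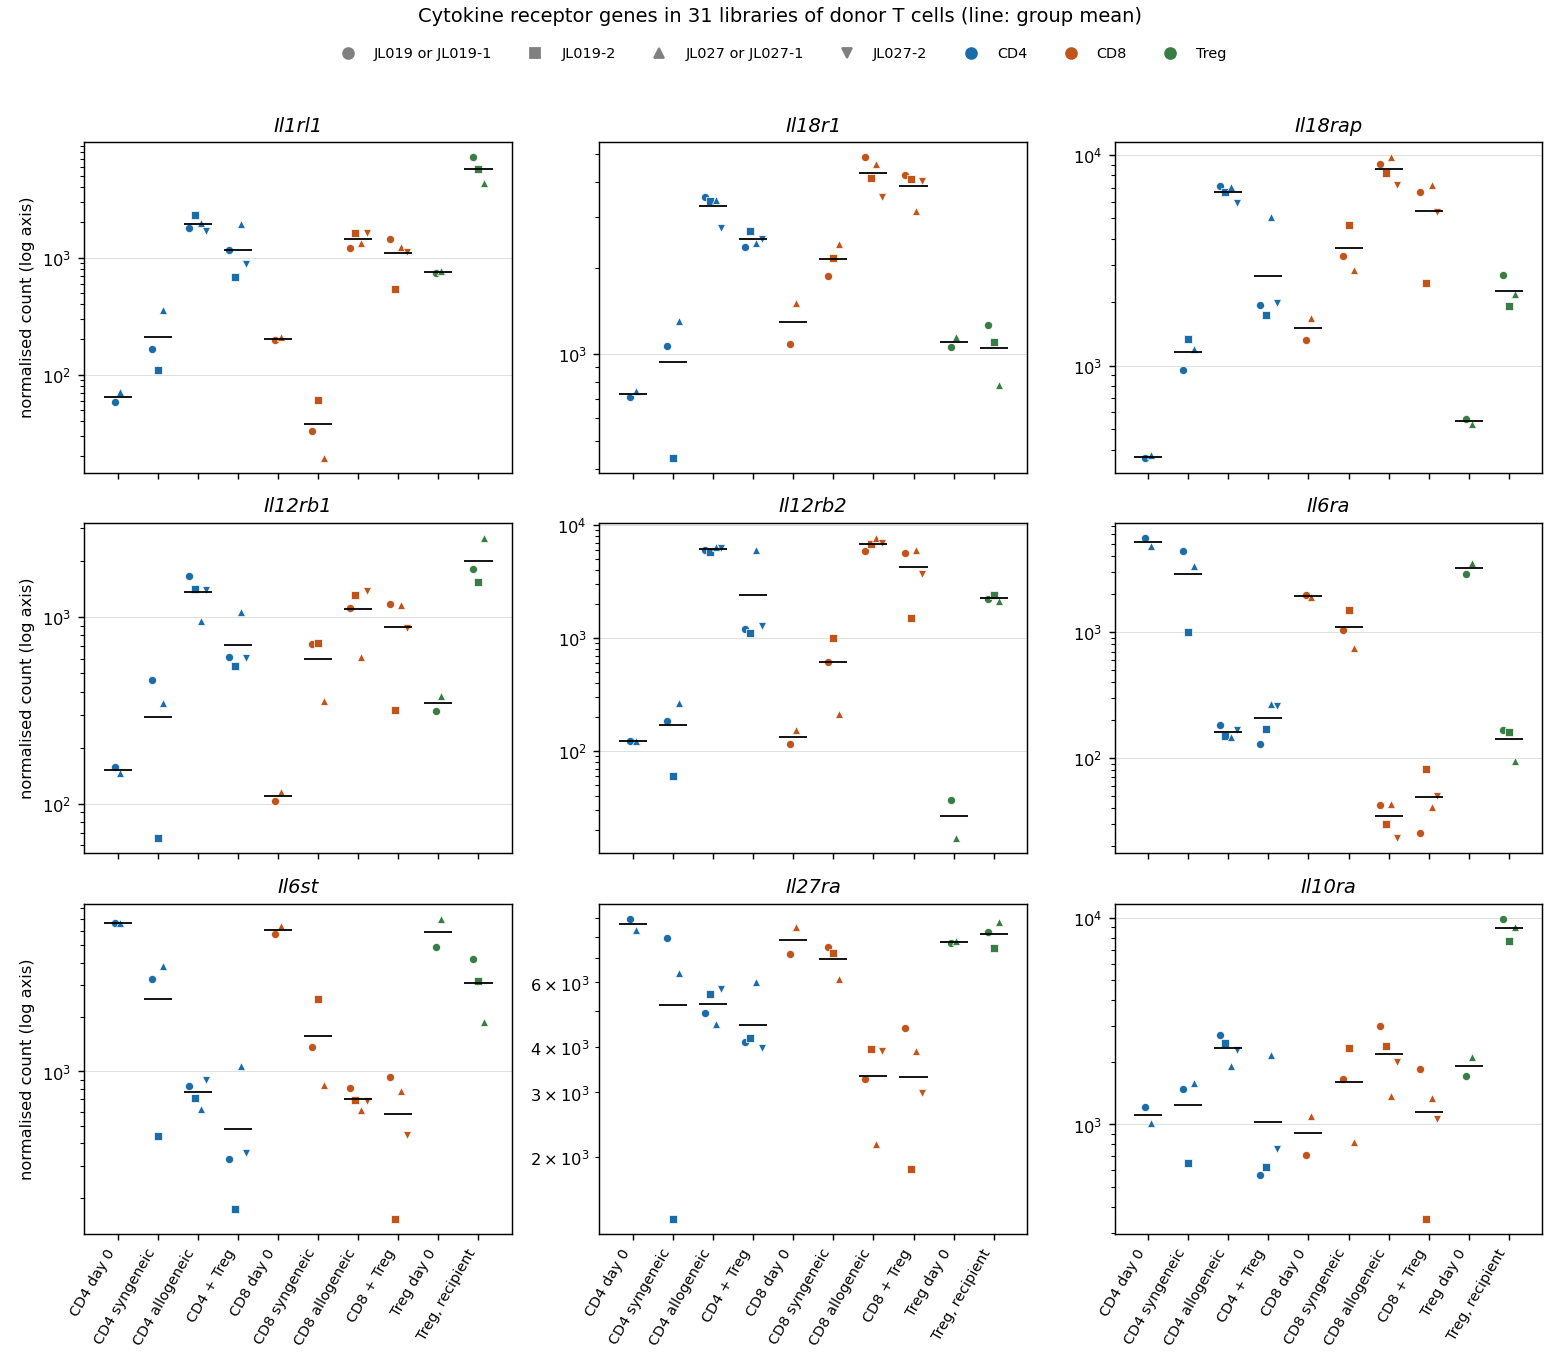
Normalised counts (log axis) of the 9 receptor genes in each of the 31 libraries, grouped by cell type and condition; colours give the cell type, marker shapes the library label and black lines the group means, "+ Treg" stands for Treg-treated recipients and "Treg, recipient" for Treg sorted from them. Il12rb2 lay at 5759.7 or above in every allogeneic library of either cell type and at 1013 or below in every day 0 and syngeneic library, while Il6ra had the opposite order.

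Il12rb2 (ENSMUSG00000018341), the inducible chain of the IL-12 receptor, showed the widest range of the 9 on the log2 scale. Its normalised counts in CD4 cells were 123 and 122 at day 0, 186, 60.1 and 265 in syngeneic recipients and 6022, 5759.7, 6386 and 6355 in allogeneic recipients. The allogeneic libraries were close to one another and far above all others of CD4 cells that were not from Treg-treated recipients. The allogeneic mean of 6131 ± 297 (SD, n = 4) was 36.0 times the syngeneic mean, a log2 change of 5.40 ± 0.54 (SE, adjusted p = 4.93e-08), or 27.2 times and 4.78 without the syngeneic library JL019-2. In CD8 cells the values were 115 and 153 at day 0, 621, 1013 and 215 in syngeneic recipients and 5949, 6798, 7705 and 6949 in allogeneic recipients. Here the syngeneic libraries were already above day 0, by a log2 change of 1.94 ± 0.64 (SE, adjusted p = 0.0298); that call was lost on leaving out either day 0 library or either JL019 syngeneic library (adjusted p up to 0.233). The allogeneic CD8 libraries did not overlap the syngeneic ones, and the log2 change between them was 3.73 ± 0.54 (SE, adjusted p = 7.24e-06). Treg were lowest at day 0, at 36.8 and 16.9, and reached 2225, 2410.0 and 2117 in recipients, the largest change of a receptor in Treg at 6.43 ± 0.64 (SE, adjusted p = 4.71e-08).

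Il12rb1 (ENSMUSG00000000791), the chain that IL-12 and IL-23 receptors share, moved less. Its row in the table is identical in all 31 libraries to a row with the identifier ENSMUSG00000111872 and no symbol. Whether reads were split between the rows or a value was copied to both is not known, so the level of Il12rb1 is uncertain. CD4 cells had 158 and 146 at day 0, 464, 65.3 and 345 in syngeneic and 1675, 1425, 952 and 1401 in allogeneic recipients. All 4 allogeneic libraries were above all syngeneic ones, with a log2 change of 2.60 ± 0.48 (SE, adjusted p = 0.000337); without the syngeneic library JL019-2, the lowest of all, it was 1.74 (adjusted p = 0.00514). In CD8 cells Il12rb1 was at 104 and 116 at day 0, 717, 726 and 356 in syngeneic and 1117, 1323, 612 and 1377 in allogeneic recipients. These CD8 allogeneic and syngeneic ranges overlapped, and their log2 change of 0.89 ± 0.48 (SE, adjusted p = 0.206) did not pass. Both CD8 groups exceeded day 0, syngeneic cells by 2.36 (adjusted p = 0.00474) and allogeneic cells by 3.25 (adjusted p = 4.23e-05); the syngeneic call was lost without the day 0 library JL019 (adjusted p = 0.0666). The highest group of the 10 was Treg from recipients, at 1826, 1554 and 2659 against 313 and 378 in Treg at day 0, a log2 change of 2.51 ± 0.58 (SE, adjusted p = 0.00315) that missed the threshold without the day 0 library JL019 (adjusted p = 0.0537). Among neighbours in the order of group levels, only CD4 and CD8 cells of day 0, the lowest groups, had ranges that did not overlap.

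For Il12rb2 the 5 groups from allogeneic hosts, with and without Treg, stood at the top of the order in the sequence CD8 allogeneic, CD4 allogeneic, CD8 Treg-treated, Treg of recipients and CD4 Treg-treated, each overlapping the next. None of them overlapped the CD8 syngeneic group, the next in order. Treg at day 0 were the lowest and did not overlap CD4 cells at day 0, yet the log2 difference of -2.25 ± 0.70 (SE, adjusted p = 0.0748) did not pass. Natural killer and innate lymphoid cells also carry IL-12 and IL-18 receptors, and their summed markers (6 of 6) were at 9821 to 9922 in CD4 cells at day 0, 3038 to 6036 in syngeneic and 12170.2 to 17651 in allogeneic recipients, the last without overlap. In CD8 cells the sums were at 11733 to 14368, 9032 to 11473 and 8366 to 12285 in the same order. Of these markers Il7r was at 1402 to 4538 in syngeneic and 8734 to 13524 in allogeneic CD4 cells, Rora at 288 to 1072 and 2883 to 3648, Eomes at 253 to 554 and 316 to 431, Ncr1 at 11.7 to 468 and 3.98 to 10.54, Klrb1c at 27.3 to 477 and 129 to 159 and Klra8 at 0.883 to 149 and 0 to 2.91. Their part in the levels of Il12rb2 and of the IL-18 receptor chains was not tested.

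The IL-18 receptor chains differed in size of change. Il18rap (ENSMUSG00000026068), the accessory chain that IL-18 signalling requires, had counts in CD4 cells of 366 and 376 at day 0, 957, 1335 and 1201 in syngeneic and 7153, 6674, 7019.9 and 5925 in allogeneic recipients. The 3 groups did not overlap, and the allogeneic mean of 6693 ± 550.5 (SD, n = 4) was 5.75 times the syngeneic mean, or 6.20 times without JL019-2. The log2 change between these groups was 2.53 ± 0.31 (SE, adjusted p = 1.13e-06), and that of syngeneic cells against day 0 was 1.63 ± 0.37 (SE, adjusted p = 0.00282); without the syngeneic library JL019-2 they were 2.64 and 1.53. CD8 cells began higher, at 1325 and 1681, and were at 3310.4, 4671 and 2859.8 in syngeneic and 9053, 8193, 9734 and 7193 in allogeneic recipients. Again the 3 groups did not overlap. At day 0 the log2 difference of CD8 from CD4 cells was 2.01 ± 0.40 (SE, adjusted p = 0.00271), the only receptor that passed in that comparison (3.32% of all genes passed), and it was 1.83 (adjusted p = 0.063) without the CD8 library JL027. The allogeneic CD8 cells were above syngeneic ones by 1.26 ± 0.31 (SE, adjusted p = 0.00346). Syngeneic CD8 cells were above day 0 by 1.24 (adjusted p = 0.0167), which became 1.07 (adjusted p = 0.191) without the day 0 library JL019 and 1.04 (adjusted p = 0.0501) without the syngeneic library JL019-2. The difference of the allogeneic effects, CD8 minus CD4, was -1.27 ± 0.43 (SE, adjusted p = 0.102), or -1.37 without CD4 syngeneic JL019-2, and passed with the recipient as a block (adjusted p = 0.0188). In order of level CD8 allogeneic cells came first, without overlap with the next group, followed by CD4 allogeneic, CD8 Treg-treated, CD8 syngeneic, CD4 Treg-treated and Treg of recipients, each overlapping the next. Below these stood CD8 day 0, CD4 syngeneic, Treg day 0 and CD4 day 0, of which only CD8 day 0 and CD4 syngeneic overlapped.

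Il18r1 (ENSMUSG00000026070), the chain that binds IL-18, was already detected well at day 0, at 708 and 748 in CD4 and 1086 and 1514 in CD8 cells. It was at 1068, 436 and 1307 in CD4 cells of syngeneic and 3541, 3415, 3457 and 2761 in those of allogeneic recipients, groups that did not overlap. Their log2 change was 1.95 ± 0.25 (SE, adjusted p = 2.07e-06), and 1.47 without the syngeneic library JL019-2. In CD8 cells the syngeneic values were 1874, 2159 and 2431 and the allogeneic values 4855, 4104, 4592 and 3534. The allogeneic CD8 libraries lay above the syngeneic ones, with a smaller log2 change of 0.98 ± 0.25 (SE, adjusted p = 0.00435). CD8 cells from allogeneic recipients were the highest group for both chains of this receptor. For Il18r1 the order went on with CD8 Treg-treated, CD4 allogeneic, CD4 Treg-treated and CD8 syngeneic, above CD8 day 0, both groups of Treg, CD4 syngeneic and CD4 day 0; neighbours did not overlap between CD4 allogeneic and CD4 Treg-treated and between CD8 syngeneic and CD8 day 0.

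In Treg, Il18rap rose and Il18r1 did not pass. Il18r1 was at 1065 and 1152 at day 0 and 1261, 1106 and 783 in recipients, overlapping ranges with a log2 change of -0.10 ± 0.29 (SE, adjusted p = 0.873). Il18rap in the same libraries went from 561 and 528 to 2682, 1917 and 2182, a log2 change of 2.04 ± 0.37 (SE, adjusted p = 0.000243). The summed natural killer and innate lymphoid markers were at 5187 to 6931 in Treg at day 0 and 19926 to 30039 in Treg of recipients. Il7r, Rora and Eomes, which T cells can express too, were higher in recipients, at 3243 to 5266 against 17530.3 to 26048, 1414 to 1554 against 1989 to 4259 and 57.4 to 79.1 against 166 to 366. Ncr1, Klrb1c and Klra8, receptors of natural killer cells, were lower, at 44.4 to 64.0 against 0.979 to 4.24, 144 to 199 against 37.7 to 58.2 and 4.95 to 48.4 against 0 to 2.48, and Klra8 was at 0 in 2 of the 3 recipient libraries. B cell sums were at 34431 to 35988 and 45349.9 to 54649.6, and erythroid sums at 460.2 and 122 at day 0 and 4655, 1708 and 50528 in recipients, with the library JL027 far above the others; their part in the levels of Il18rap and Il12rb2 was not tested. In Treg-treated recipients the log2 difference of Treg from CD4 cells in Il18r1 was -1.29 ± 0.25 (SE, adjusted p = 0.000438). The change of Il18r1 since day 0 differed between Treg and CD4 cells of Treg-treated recipients by -1.89 ± 0.41 (SE, adjusted p = 0.00569); 2 of 9 receptors passed this test of a difference, in which 4.71% of all genes passed.

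ST2 (Il1rl1, ENSMUSG00000026069) had its highest levels in Treg of recipients. In Treg its counts were 736 and 766 at day 0 and 7178, 5727 and 4372 after transplantation, 7.67 times the level of day 0, and no other library reached the lowest of them. The log2 change was 2.91 ± 0.45 (SE, adjusted p = 3.34e-05). At day 0 Treg already exceeded CD4 cells, which had 58.0 and 70.8, by 3.53 ± 0.49 (SE, adjusted p = 3.78e-05), the only receptor that passed between these cell types (3.89% of all genes). In Treg-treated recipients the log2 difference of Treg from CD4 cells was 2.39 ± 0.38 (SE, adjusted p = 5.13e-05). Mast cells and basophils also carry ST2; their summed markers (6 of 8 in the table) were at 1534 to 1832 in Treg of recipients and 225 to 304 in Treg at day 0. Hdc made up most of the former sum (1393 to 1743), Cpa3 was at 9.78 to 36.3 and Fcer1a at 1.22 to 4.85. In Treg at day 0 the means were 131 for Hdc, 40.4 for Cpa3 and 2.83 for Fcer1a, and Mcpt8 was at 0 in 1 library. The part of mast cells and basophils in the level of Il1rl1 was not tested.

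Conventional cells gained Il1rl1 in allogeneic hosts. CD4 cells had 166, 109 and 357 in syngeneic and 1787, 2325, 1995 and 1672 in allogeneic recipients, and the lowest allogeneic library was far above the highest syngeneic one. The log2 change was 3.37 ± 0.38 (SE, adjusted p = 2.92e-07), or 2.98 without the syngeneic library JL019-2. CD8 cells had 196 and 208 at day 0, 33.0, 60.1 and 19.4 in syngeneic and 1205, 1614, 1321 and 1614 in allogeneic recipients. The syngeneic CD8 libraries were therefore below every day 0 library of CD8 cells, and the allogeneic ones were above both. Markers of other cells that carry ST2 moved too. Mast cell and basophil sums in CD4 cells were at 426 to 475 at day 0, 787 and 394 in the syngeneic libraries other than JL019-2 and 868 to 1396 in allogeneic recipients, and in CD8 cells 813 to 870.0, 378 to 416 and 504 to 570.3. Treg marker sums were at 10320.3 to 11055, 4840.3 to 11977 and 33926 to 42940.3 in CD4 cells and 2534 to 3133, 3636 to 6829 and 28017 to 35788 in CD8 cells, in the same order. Of these markers Foxp3 was at 978 to 1145 at day 0 and 337 to 579 in allogeneic CD4 cells and 6.82 to 9.68 and 103 to 453 in CD8 cells, and Ctla4, which activated T cells express too, at 1106 to 1179.7 and 12479 to 19865, and 95.2 to 157 and 11921 to 18092. Their part in the level of Il1rl1 was not tested.

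Syngeneic transfer moved Il1rl1 in opposite directions in the conventional cells. It fell by 2.54 ± 0.45 on the log2 scale (SE, adjusted p = 0.000249) in CD8 cells against day 0, and rose by 1.53 ± 0.45 (SE, adjusted p = 0.023) in CD4 cells, of which the mean log2 change without the library JL019-2 was 1.91. Mast cell and basophil markers in CD8 cells summed to 813 to 870.0 at day 0 and 378 to 416 in syngeneic recipients. Among them Kit was at 366 to 449.7 and 14.5 to 43.7 and Cpa3 at 168 to 213 and 42.1 to 87.3, whereas Hdc was at 87.4 to 121 and 201 to 283; their part in the fall of Il1rl1 was not tested. The rise in CD4 cells lost its call without either day 0 library or without the syngeneic library JL027, where it was 1.06 (adjusted p = 0.107). The difference of the changes, CD8 minus CD4, was -4.07 ± 0.63 (SE, adjusted p = 0.00032), or -4.45 without CD4 syngeneic JL019-2, a test added after the values of Il1rl1 had been seen, in which 3.63% of all genes passed and Il1rl1 was the only receptor of the 9. This difference lost its call in a fit of only the groups compared. From day 0 to allogeneic cells the mean log2 level of Il1rl1 went from 6.02 to 10.91 in CD4 and from 7.67 to 10.48 in CD8 cells. That rise was wider in CD4 cells. Against syngeneic cells, at 7.55 in CD4 and 5.12 in CD8 cells, the order was the other way. This allogeneic effect was 5.36 ± 0.38 (SE, adjusted p = 2.71e-11) in CD8 cells and 3.37 in CD4 cells. The difference of these effects was 1.99 ± 0.53 (SE, adjusted p = 0.0265), or 2.37 without CD4 syngeneic JL019-2, where 1 of 9 receptors and 4.65% of all genes passed. It is not firm, since it lost its call on leaving out any of 7 of 14 libraries, CD4 syngeneic JL027 (1.52) and CD8 syngeneic JL027 (1.60, adjusted p = 0.108) among them, and after quantile normalisation (1.33).

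The order of Il1rl1 levels ran from Treg of recipients through CD4 allogeneic, CD8 allogeneic, CD4 Treg-treated, CD8 Treg-treated and Treg day 0 to CD8 day 0, CD4 syngeneic, CD4 day 0 and CD8 syngeneic. Neighbours did not overlap at 4 places in this order: above and below CD4 allogeneic, between Treg day 0 and CD8 day 0, and between CD4 syngeneic and CD4 day 0.

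**Figure D2:**
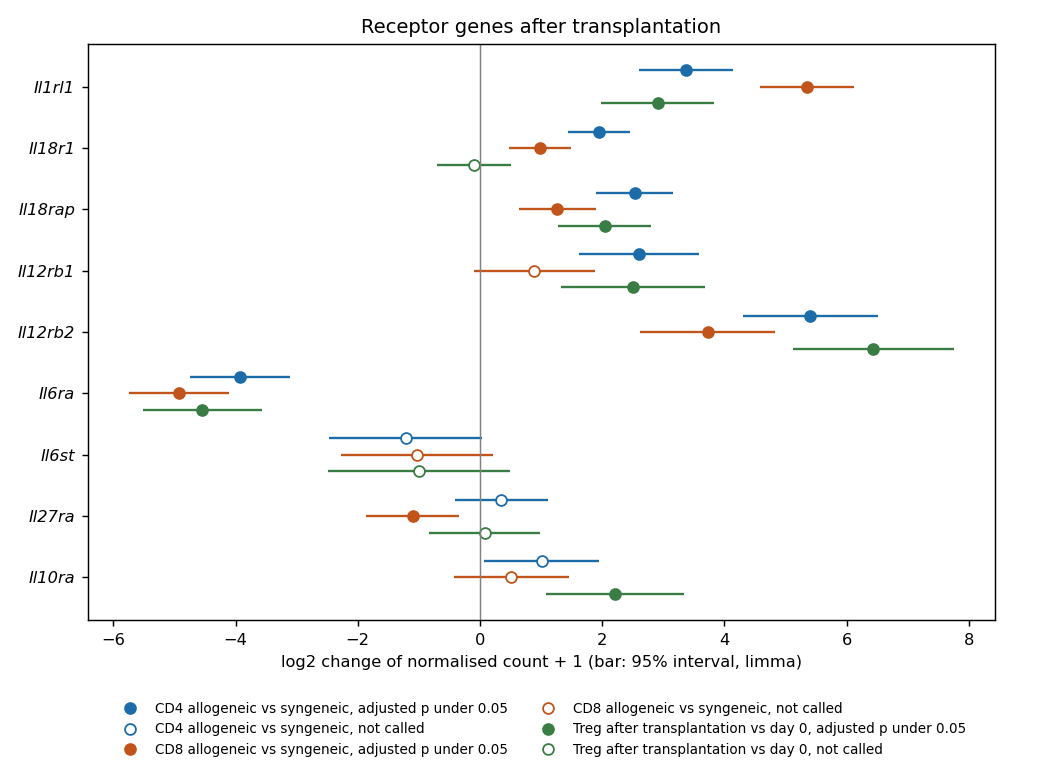
log2 changes of the 9 receptor genes with their 95% intervals (bars) from limma on log2(normalised count + 1), for CD4 and CD8 cells of allogeneic against syngeneic recipients and Treg of recipients against day 0; filled points passed the test. Il12rb2 and Il6ra had large changes of opposite sign in CD4 and CD8 cells of allogeneic against syngeneic recipients, 5.40 and -3.92 in CD4 cells.

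Il6ra (ENSMUSG00000027947), the chain that binds IL-6 and is known to be shed and lost on T cell activation, had the clearest fall. CD4 cells had 5595 and 4809 at day 0, 4388, 998 and 3362 in syngeneic and 184, 148, 148 and 167 in allogeneic recipients. Every allogeneic library was far below the lowest syngeneic one, JL019-2. The allogeneic mean of 162 ± 17.2 (SD, n = 4) was 0.0554 of the syngeneic mean, a log2 change of -3.92 ± 0.40 (SE, adjusted p = 6.67e-08), and 0.0417 and -4.57 without JL019-2. CD8 cells had 1987 and 1907 at day 0, 1033, 1498 and 750.4 in syngeneic and 42.6, 30.1, 43.1 and 22.9 in allogeneic recipients. The fall was wide there too, at -4.93 ± 0.40 (SE, adjusted p = 3.5e-10). In allogeneic recipients CD8 cells were below CD4 cells, with a log2 difference of -2.23 ± 0.37 (SE, adjusted p = 0.000228), the only receptor that passed between these cells (6.15% of all genes). Treg shared the fall, from 2896 and 3533 at day 0 to 166, 160.3 and 95 in recipients, a log2 change of -4.54 ± 0.48 (SE, adjusted p = 1.04e-07). All 5 groups from allogeneic hosts were below all others, and CD8 cells with and without Treg were the lowest and did not overlap the rest.

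Il6st (ENSMUSG00000021756), which encodes gp130, the signalling chain of IL-6 and IL-27 receptors, fell against day 0 and not past the threshold against syngeneic cells. CD4 cells had 6639 and 6608 at day 0, 3257, 439.6 and 3825 in syngeneic and 833, 710.2, 616 and 902 in allogeneic recipients. The syngeneic library JL019-2 lay below all 4 allogeneic libraries, and the other 2 lay above them. The log2 change of allogeneic against syngeneic cells was -1.22 ± 0.61 (SE, adjusted p = 0.204), and without JL019-2 it was -2.22 ± 0.56 (SE, adjusted p = 0.0078) and passed. Against day 0 it was -3.13 ± 0.69 (SE, adjusted p = 0.00111) in CD4 and -3.12 ± 0.69 (SE, adjusted p = 0.000993) in CD8 cells. CD8 cells had 5749.6 and 6379 at day 0, 1372, 2521 and 841 in syngeneic and 809.8, 698, 609 and 686 in allogeneic recipients, with the syngeneic libraries between the other groups. The syngeneic fall in CD8 cells, -2.08 (adjusted p = 0.0374), lost its call without either day 0 library or without syngeneic JL019-1 or JL027, and was 0.038 with the log2 mean of each library as a covariate. The order began with the 3 groups of day 0, then Treg of recipients and the syngeneic cells, and ended with the conventional cells of allogeneic hosts, which overlapped one another.

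Treg stood out from CD4 cells in gp130. They had 4873 and 7016 at day 0 and 4202, 3174 and 1872 in recipients, with a log2 change of -1.0 ± 0.72 (SE, adjusted p = 0.438). CD4 cells of the same kind of recipient had 329, 172, 1069 and 354, and every Treg library exceeded every one of these. The log2 difference was 2.93 ± 0.61 (SE, adjusted p = 0.000911). The test of the difference in change since day 0, 3.11 ± 1.00 (SE, adjusted p = 0.0681), did not pass, and it passed with the recipient as a block (3.93, adjusted p = 0.029).

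Il27ra (ENSMUSG00000005465), the specific chain of the IL-27 receptor, was abundant in every group. CD4 cells had 8965 and 8347 at day 0, 7944, 1352 and 6349.9 in syngeneic and 4962, 5570.0, 4622 and 5743 in allogeneic recipients. The syngeneic library JL019-2 was again the lowest, and the log2 change of 0.35 ± 0.37 (SE, adjusted p = 0.617) became -0.45 without it. CD8 cells had 7189 and 8531 at day 0, 7505, 7246 and 6114 in syngeneic and 3267, 3933, 2168 and 3906 in allogeneic recipients. The allogeneic CD8 libraries were all below the syngeneic ones, with a log2 change of -1.10 ± 0.37 (SE, adjusted p = 0.0342); the call was lost without any one of allogeneic JL019-1 and JL027-1 or of the 3 syngeneic libraries (adjusted p up to 0.103). Against day 0 the change in CD8 cells was -1.28 (adjusted p = 0.0221), lost without either day 0 library or allogeneic JL027-1. Treg had 7676 and 7786 at day 0 and 8231, 7434 and 8804 in recipients, overlapping ranges with a log2 change of 0.074 ± 0.44 (SE, adjusted p = 0.944). The groups of day 0 and Treg of recipients stood highest and CD8 cells of allogeneic hosts, with and without Treg, lowest.

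Il10ra (ENSMUSG00000032089), the chain that binds IL-10, was highest in Treg of recipients. Their 3 libraries were at 9897, 7739.6 and 9005, above all other libraries of the series, against 1721 and 2118 in Treg at day 0. The mean of 8880.4 ± 1084 (SD, n = 3) was 4.63 times that of day 0, and the log2 change was 2.21 ± 0.55 (SE, adjusted p = 0.00624), with an adjusted p of 0.0892 without the day 0 library JL019. CD4 cells had 1208 and 1022 at day 0, 1482, 649.6 and 1595 in syngeneic and 2720.1, 2466, 1908 and 2279.8 in allogeneic recipients. Allogeneic libraries were above the others, but the log2 change against syngeneic cells, 1.01 ± 0.46 (SE, adjusted p = 0.16), did not pass, and it was 0.60 (adjusted p = 0.591) without the syngeneic library JL019-2. In CD8 cells the values were 714 and 1098, 1655, 2353 and 820.3 and 2986, 2384, 1366 and 2011 in the same order, with overlap between syngeneic and allogeneic cells and a log2 change of 0.51 ± 0.46 (SE, adjusted p = 0.476). In Treg-treated recipients Treg exceeded CD4 cells by 3.33 ± 0.46 (SE, adjusted p = 8.96e-06). The change since day 0 differed between Treg and CD4 cells by 2.55 ± 0.76 (SE, adjusted p = 0.0497), a call at the threshold that was lost in 10 of the 11 fits that left out 1 library each (adjusted p up to 0.201, without Treg day 0 JL019). Below Treg of recipients each group overlapped the next in order, from CD4 allogeneic, CD8 allogeneic and Treg day 0 down to CD4 Treg-treated cells.

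Across the Treg comparisons, 6 of 9 receptors passed between recipients and day 0 (5 higher, 1 lower; 13.3% of all genes, 8.43% higher and 4.89% lower), with a median log2 change of 2.04 beside -0.066 over all genes. Between Treg and CD4 cells of Treg-treated recipients 5 of 9 passed (4 higher, 1 lower; 30% of all genes, 13.9% higher and 16.1% lower). Il12rb1 was among the latter (1.52 ± 0.48 SE, adjusted p = 0.0193), a call lost without the CD4 library JL019-2 or the Treg library JL027 (adjusted p up to 0.0913), and Il12rb2 was not (0.32 ± 0.54 SE, adjusted p = 0.676).

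The study's central comparison is that of donor cells from allogeneic recipients with and without Treg. In CD4 cells 3 of 9 receptors were lower with Treg and none higher, where 22.2% of all genes passed, 10.7% higher and 11.5% lower; the median log2 change of the 9 was -0.96 beside -0.0018 over all genes. Il12rb2 was at 1205, 1109, 6099 and 1280.4 with Treg, a mean of 2423 ± 2451 (SD, n = 4). The library JL027-1 of Treg-treated CD4 cells lay within the allogeneic range and the other 3 were far below it. The log2 change was -1.77 ± 0.50 (SE, adjusted p = 0.0179), and -2.36 ± 0.45 (SE, adjusted p = 0.000946) without JL027-1. Il18rap was at 1932, 1747, 5055 and 1984 with Treg, with JL027-1 again the highest and all 4 libraries below all allogeneic ones. Its log2 change was -1.47 ± 0.28 (SE, adjusted p = 0.005). Il10ra was at 571, 621, 2176 and 762, of which JL027-1 lay within the allogeneic range, and its log2 change was -1.41 ± 0.43 (SE, adjusted p = 0.0233).

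The other 6 receptors did not pass in CD4 cells. Il1rl1 was at 1163, 686, 1924 and 882 with Treg, of which the library JL027-1 lay within the allogeneic range, and its log2 change was -0.84 ± 0.35 (SE, adjusted p = 0.0802). Il18r1 was at 2374, 2701, 2453 and 2529, all below the lowest allogeneic library, with a log2 change of -0.38 ± 0.23 (SE, adjusted p = 0.227). Il12rb1 was at 616, 549, 1073 and 605 and its log2 change was -0.96 ± 0.45 (SE, adjusted p = 0.116). The changes of Il6ra (0.29, adjusted p = 0.609), Il6st (-0.98, adjusted p = 0.209) and Il27ra (-0.21, adjusted p = 0.712) did not pass either. Il6ra was at 129, 169, 269 and 258 and Il27ra at 4117, 4230.2, 6003 and 3973 with Treg. The libraries of 2 of the 9 receptors, Il18r1 and Il18rap, did not overlap between these groups, and 22.2% of all genes did not overlap.

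This count of 3 was unstable. Without JL027-1 of the Treg-treated CD4 cells it was 5, with Il1rl1 (-1.12, adjusted p = 0.016) and Il6st (-1.47, adjusted p = 0.0443) added. The median log2 change was then -1.18, beside 0.0030 over all genes. Without any one of the other 3 Treg-treated libraries the count was 1, Il18rap. Il10ra also missed the threshold without the allogeneic library JL019-1 or JL019-2 (adjusted p = 0.0633 and 0.0585). The mean normalised count over all genes moved with the groups, at 1504 to 1669 in the 4 allogeneic CD4 libraries and 1964, 2118, 1608 and 1817 in the Treg-treated ones, of which the lowest is JL027-1. With the log2 of that mean as a covariate, 1 receptor passed, Il18rap at -1.13 (adjusted p = 0.0193), while Il12rb2 was at -0.83 (adjusted p = 0.134) and Il10ra at -0.64 (adjusted p = 0.211). The change of Il6st turned direction with this covariate. Without the 6 libraries of the highest means Il18rap was at -1.08 (adjusted p = 0.0163) and Il12rb2 at -1.13 (adjusted p = 0.0541). The length slope, of log2 deviations from each gene's mean on log2 gene length, moved with the groups too. It was 0.019 to 0.045 in the allogeneic CD4 libraries and -0.099, -0.121, 0.016 and -0.069 in the Treg-treated ones. In an alternative fit given below this length trend was removed. Summed myeloid markers (14 of 14) were at 28408 to 99175 in Treg-treated and 9255 to 16386 in allogeneic CD4 cells. None of these markers was at 0; S100a8 was at 12431 to 44215 and 2225 to 5243, whereas Csf1r, a defining macrophage marker, was at 3.23 to 28.5 and 4.95 to 25.9. Erythroid sums were at 6095, 5519.5, 50292 and 62621 with Treg and 471, 465, 8582 and 10822 without, higher with Treg within both prefixes. Mast cell and basophil sums were at 1492 to 2955 and 868 to 1396 and B cell sums at 20393 to 25421 and 13351 to 17471, both higher with Treg without overlap. Natural killer and innate lymphoid sums were at 12728, 13195, 6758 and 7984 with Treg and 17651, 16307, 14099 and 12170.2 without, lower with Treg within both prefixes. Cd4 itself was at 9108, 8722, 17587 and 9369.5 in Treg-treated and 21374, 21480.5, 16706 and 19519 in allogeneic CD4 cells, so that JL027-1 again lay within the allogeneic range and the other 3 libraries below it. The part of these markers in the receptor changes was not tested. Within the labels' prefixes the log2 change of Il18rap was -1.91 in JL019 (adjusted p = 0.0499) and -1.03 in JL027 (adjusted p = 0.789), and that of Il12rb2 was -2.35 and -1.19.

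**Figure D3:**
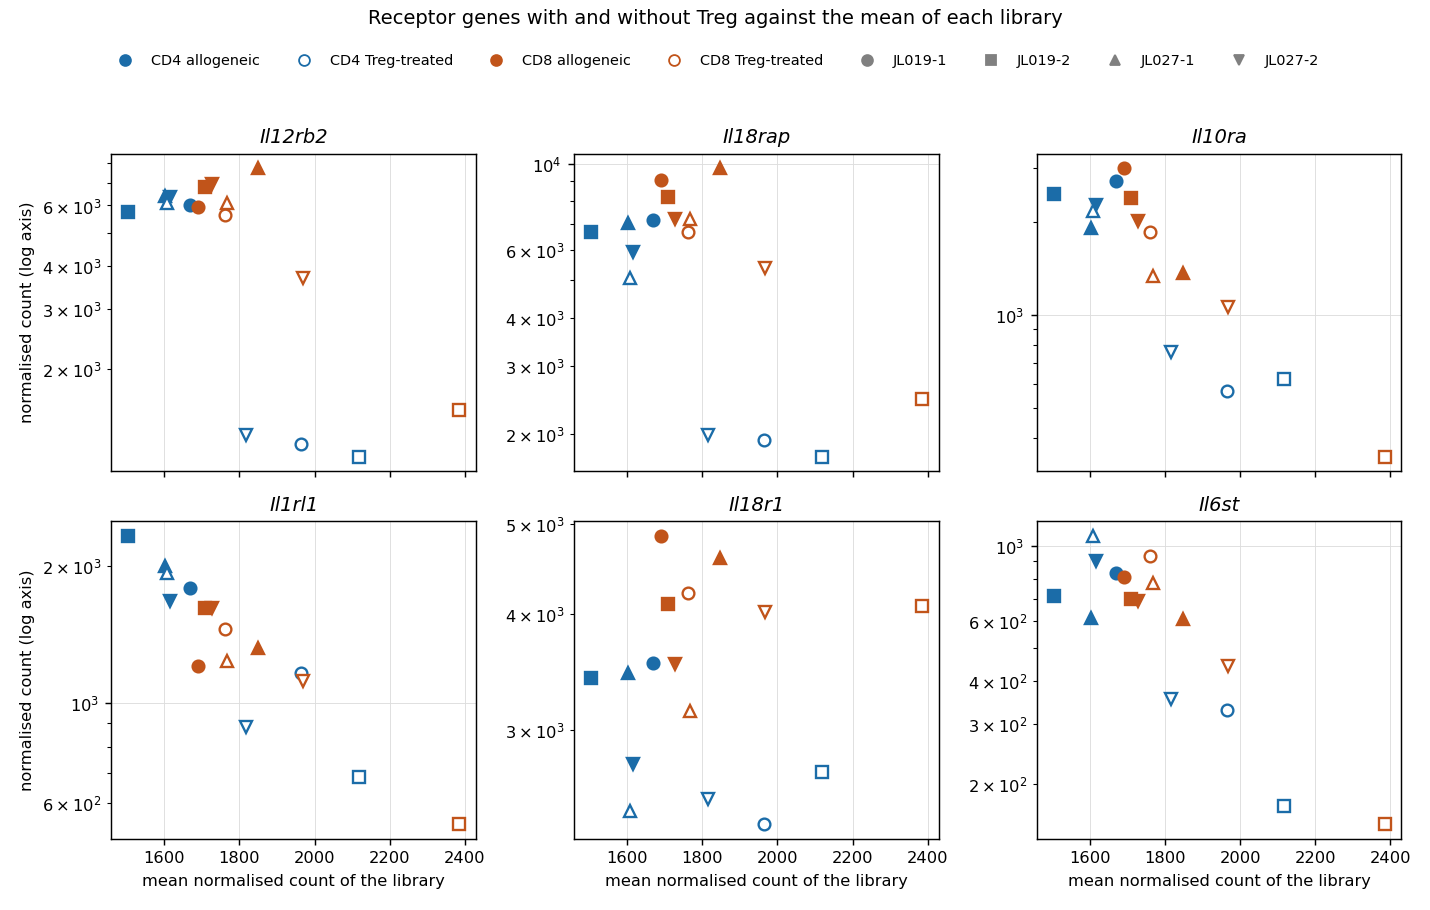
Normalised counts of 6 receptor genes (vertical log axes) against the mean normalised count of each library over all genes (horizontal axes) in conventional cells of allogeneic recipients without (filled) and with Treg (open), in blue for CD4 and orange for CD8 cells, with marker shapes for the library labels. In CD4 cells the Treg-treated library JL027-1 has the lowest library mean of its group, 1608, and the highest Il12rb2 of its group, 6099.

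In CD8 cells no receptor passed, where 0.0657% of all genes passed; 2 receptors had an unadjusted limma p under 0.05, Il18rap and Il10ra, and the median log2 change was -0.48 beside -0.0069. Il18rap was at 6639.9, 2464, 7212 and 5389 with Treg and Il12rb2 at 5641, 1518, 6082 and 3696. The library JL019-2 was the lowest of the Treg-treated CD8 libraries for both, and it had the highest library mean of the series, 2385. It also had the lowest length slope of the series, -0.124, beside -0.018 to 0.014 in allogeneic CD8 cells. The log2 changes were -0.76 ± 0.28 (SE, adjusted p = 0.344) for Il18rap, -0.87 ± 0.50 (SE, adjusted p = 0.503) for Il12rb2 and -1.10 ± 0.43 (SE, adjusted p = 0.363) for Il10ra, and -0.42, -0.44 and -0.60 without JL019-2. Il1rl1 was at 1454, 539.6, 1235 and 1117 and Il6ra at 25.3, 81.2, 40.5 and 49.8. The other receptors had 4218, 4077, 3148 and 4018 (Il18r1), 1186, 319, 1160.2 and 876 (Il12rb1), 935, 152, 779 and 445 (Il6st), 4494, 1854, 3896 and 2982 (Il27ra) and 1864, 349, 1342 and 1059 (Il10ra), and the ranges of each receptor overlapped those without Treg. The difference of the Treg effects, CD8 minus CD4, passed for none of the 9 receptors, also at an unadjusted limma p of 0.05, and for 0.00597% of all genes; it was 0.90 ± 0.70 (SE) for Il12rb2 and 0.71 ± 0.40 (SE) for Il18rap. The Treg effects in CD4 and CD8 cells are therefore not shown to differ, nor shown to be alike.

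The balance of partner chains was followed as the log2 ratio of their normalised counts within each library, which can be compared between groups but not read as a ratio of molecules, since the counts are not per length. Il12rb2 over Il12rb1 averaged -0.31 in CD4 cells at day 0, -0.60 in syngeneic and 2.20 in allogeneic recipients; the syngeneic libraries ran from -1.32 to -0.12, with JL019-2 the highest. In Treg it went from -3.73 to 0.20, below that of the allogeneic conventional cells. The ratio is as uncertain as the Il12rb1 row. Il18rap over Il18r1 averaged -0.97 in CD4 cells at day 0, 0.44 in syngeneic recipients (range -0.16 to 1.61, the highest in JL019-2) and 1.03 in allogeneic recipients without Treg. In CD8 cells it averaged 0.22, 0.72 and 1.00 in the same order, with the syngeneic range (0.23 to 1.11) overlapping the allogeneic one (0.90 to 1.08), and in Treg at day 0 it was -1.02. In Treg-treated recipients it averaged 1.12 in Treg (range 0.79 to 1.48), -0.058 in CD4 (range -0.63 to 1.04, the highest in JL027-1) and 0.39 in CD8 cells (range -0.73 to 1.20). Il6ra over Il6st averaged -0.35 at day 0, 0.47 in syngeneic and -2.23 in allogeneic recipients in CD4 cells, and -1.64, -0.44 and -4.34 in CD8 cells. In Treg it averaged -0.87 at day 0 and -4.41 in recipients. Its CD4 syngeneic libraries were at 0.43, 1.18 and -0.19, with JL019-2 the highest. Il27ra over Il6st averaged 0.39 in CD4 cells at day 0, 1.21 in syngeneic and 2.78 in allogeneic recipients, and 0.37, 2.28 and 2.21 in CD8 cells, where the syngeneic range (1.52 to 2.86) overlapped the allogeneic one (1.83 to 2.51). Its CD4 syngeneic libraries ran from 0.73 to 1.62, again with JL019-2 the highest.

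**Figure D4:**
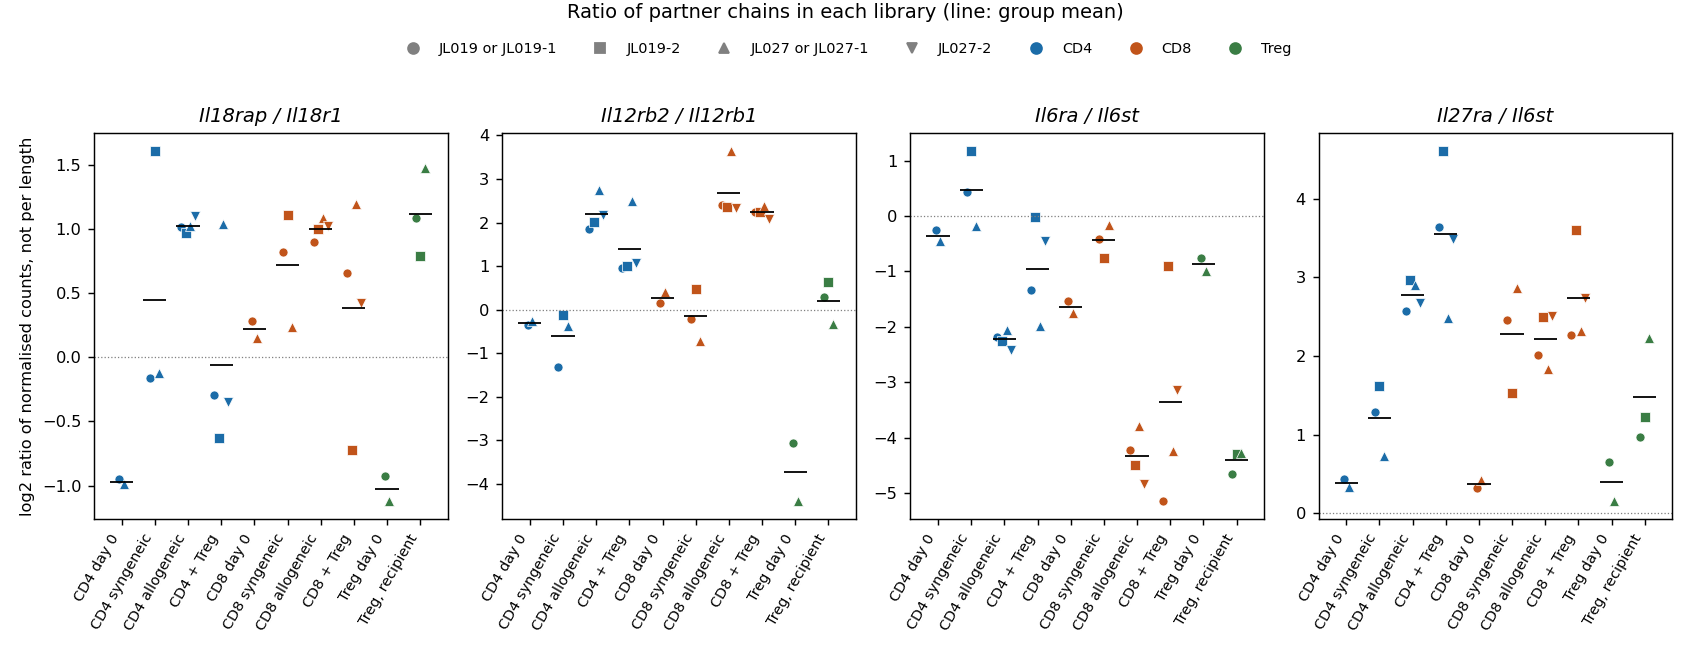
log2 ratio of the normalised counts of partner chains in each library, by group; lines are group means, colours give the cell type and marker shapes the library label. Il18rap over Il18r1 lay near 1 in allogeneic CD4 and CD8 cells, with group means of 1.03 and 1.00, and the group means of Il6ra over Il6st were lowest in CD8 cells of allogeneic recipients and Treg of recipients, while the lowest single library, at -5.15, was of Treg-treated CD8 cells.

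Il1rl1, Il18r1 and Il18rap lie in a row of IL-1 receptor family genes on chromosome 1, in the order Il1r2, Il1r1, Il1rl2, Il1rl1, Il18r1 and Il18rap. The annotated end of Il1rl1 and the start of Il18r1 are 133 bases apart, and 14507 bases separate Il18r1 from Il18rap. The neighbours did not share one pattern. Il1rl2, the IL-36 receptor and the neighbour of Il1rl1, had a mean of 736 in CD4 cells and 47.6 in Treg at day 0, and 57.5 in Treg of recipients, where Il1rl1 had 5759. Il1r2, the decoy receptor of IL-1, was high in Treg at day 0 (mean 2127) as Il1rl1 was, and low in CD4 (78.5) and CD8 (15.5) cells at day 0. In allogeneic recipients it was at 2209 in CD4 and 1219 in CD8 cells.

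**Figure D5:**
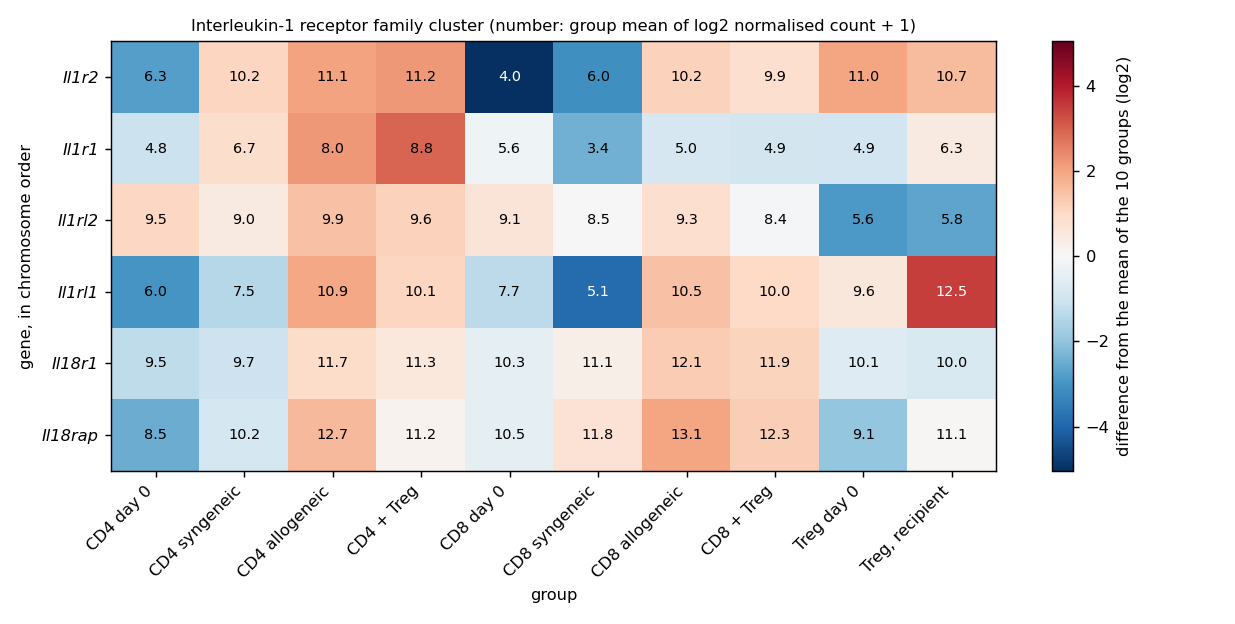
Group means of log2(normalised count + 1) of the 6 IL-1 receptor family genes in chromosome order, in the 10 groups; colours give the difference from the mean of the 10 groups. Il1rl1 was highest in Treg of recipients, whereas Il1rl2, its neighbour, was lowest in the groups of Treg.

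Genes of the same pathways were followed as 7 lists, whose counts stand beside the shares of all genes called higher and lower. In allogeneic against syngeneic recipients these shares were 6.69% and 7.91% in CD4 cells and 10.4% and 10.7% in CD8 cells, in Treg of recipients against day 0 they were 8.43% and 4.89%, against CD4 cells of Treg-treated recipients 13.9% and 16.1%, and in Treg-treated against allogeneic CD4 cells 10.7% and 11.5%. The genes named after each count are those of the list with the lowest p that passed. For CD4 cells the counts without the syngeneic library JL019-2, added after the data had been seen, follow as higher and lower. Of the ligands in the list (8 of 12 were in the table; Il12a, Il12b, Il27 and Il33 were not analysed here), 2 were higher and 1 lower (median log2 change -0.13) in CD4 cells of allogeneic against syngeneic recipients, or 3 and 1 without JL019-2; Il6 was at 2.46 ± 0.67 (SE), or 3.82 without JL019-2, and Osm, oncostatin M, at -1.65 ± 0.35 (SE), or -0.92. In CD8 cells 2 were higher and 0 lower (median log2 change 1.38), with Il10 at 5.76 ± 0.47 (SE). In Treg of recipients against day 0 3 were higher and 0 lower (median log2 change 0.90), with Ebi3, the subunit that IL-27 and IL-35 share, at 2.97 ± 0.54 (SE) and Il10 at 2.68 ± 0.56 (SE). Of 13 other receptor chains and decoys, 1 was higher and 2 lower (median log2 change 0.93) in CD4 cells of allogeneic against syngeneic recipients, or 2 and 2 without JL019-2, and Il18bp, the soluble inhibitor of IL-18, was at -1.39 ± 0.26 (SE), or -1.11. In Treg-treated against allogeneic CD4 cells Il18bp was at 1.72 ± 0.24 (SE), opposite in sign to Il18rap, or 1.81 without the Treg-treated library JL027-1. Summed myeloid markers were higher in syngeneic and in Treg-treated than in allogeneic CD4 cells. Their part in the changes of Il18bp and Osm was not tested. In Treg of recipients Il18bp was at 2.35 ± 0.31 (SE) and Il23r, which pairs with IL-12Rβ1, at -2.40 ± 0.79 (SE) against day 0. In CD8 cells of allogeneic against syngeneic recipients 4 were higher and 2 lower (median log2 change 0.83), with Il10rb, the partner of IL-10Rα, at -1.76 ± 0.16 (SE) and Il1r2 at 4.24 ± 0.46 (SE). With Treg, 1 was higher and 2 lower (median log2 change -0.33) of these chains and 2 were higher and 0 lower (median log2 change 1.08) of the ligands in CD4 cells against allogeneic recipients without them, or 1 and 3 and 2 and 0 without JL027-1.

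Of 10 genes of the JAK-STAT arm, 2 were higher and 0 lower (median log2 change 0.26) in CD4 cells, or 1 and 2 without JL019-2, among them Stat4, which IL-12 activates, at 1.87 ± 0.25 (SE), or 1.43. Jak2 was at 1.47 ± 0.38 (SE), and at 1.05 (adjusted p = 0.0909) without JL019-2. In CD8 cells 0 were higher and 4 lower (median log2 change -0.56), among them Socs1, a feedback inhibitor of cytokine receptors, at -2.35 ± 0.29 (SE). With Treg, 2 were higher and 2 lower (median log2 change -0.22) in CD4 cells, with Socs1 at 1.10 ± 0.27 (SE) and Tyk2, the kinase of IL-12Rβ1, at -1.03 ± 0.33 (SE); the counts were 1 and 3 without JL027-1. Of 15 genes of the MYD88 arm, through which IL-18 and IL-33 signal, 5 were higher and 0 lower (median log2 change 0.59) in CD4 cells, or 3 and 0 without JL019-2, and 6 were higher and 0 lower (median log2 change 0.72) in CD8 cells of allogeneic against syngeneic recipients. Irak3, an inhibitory kinase of that arm, was at 2.25 ± 0.51 (SE) and 5.33 ± 0.51 (SE) in these cells and at 3.34 in CD4 cells without JL019-2. In Treg of recipients against day 0 1 was higher and 1 lower (median log2 change 0.40), Irak3 at -1.85 ± 0.61 (SE) and Myd88 itself at 0.63 ± 0.21 (SE). With Treg, 0 were higher and 5 lower (median log2 change -0.87) in CD4 cells against allogeneic recipients without them, among them Traf6 at -1.49 ± 0.34 (SE); without the Treg-treated library JL027-1 these counts were 1 and 7.

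Of 6 genes of the response to IL-12 and IL-18, 3 were higher and 1 lower (median log2 change 1.55) in CD4 cells of allogeneic against syngeneic recipients, or 3 and 0 without JL019-2. Ifng, interferon-γ, was at 2.40 ± 0.32 (SE) and Furin, a protease induced by IL-12, at 3.18 ± 0.27 (SE), or 2.29 and 2.95 without JL019-2. In CD8 cells 2 were higher and 0 lower (median log2 change 0.054), with Furin at 3.06 ± 0.27 (SE) and Ifng at 1.67 ± 0.32 (SE). With Treg, none of the 6 passed in CD4 cells, where Ifng ran from 5285 to 11048 against 3919 to 5069.5 without Treg, with all Treg-treated values above all the others; without the Treg-treated library JL027-1, 3 of the 6 passed, all higher, Ifng among them at 0.90 (adjusted p = 0.0265). In Treg of recipients 3 were higher and 0 lower (median log2 change 1.63) against day 0, with Tbx21, the T helper 1 factor T-bet, at 2.81 ± 0.47 (SE) and Ifng at 2.62 ± 0.38 (SE). Of 6 genes of the STAT3 response, 4 were higher and 1 lower (median log2 change 1.99) in CD4, or 4 and 1 without JL019-2, and 5 were higher and 0 lower (median log2 change 2.11) in CD8 cells of allogeneic against syngeneic recipients, with Prdm1, the factor Blimp-1, at 2.91 ± 0.27 (SE) (or 2.51 without JL019-2) and 4.48 ± 0.27 (SE). With Treg, 1 was higher and 1 lower (median log2 change 0.22) in CD4 cells, namely Batf at 0.85 ± 0.23 (SE) and Prdm1 at -1.37 ± 0.25 (SE), and the counts were 1 and 1 without JL027-1.

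Of 7 genes known from ST2-positive Treg, 5 were higher and 0 lower (median log2 change 2.08) in Treg of recipients against day 0, with Klrg1, a receptor of terminally differentiated cells, at 3.38 ± 0.46 (SE) and Batf, a transcription factor of tissue Treg, at 1.56 ± 0.30 (SE). Against CD4 cells of Treg-treated recipients 5 were higher and 1 lower (median log2 change 2.35), with Areg, the repair factor amphiregulin, at 3.12 ± 0.56 (SE). The genes of this list also passed in conventional cells: 5 were higher and 0 lower (median log2 change 1.63) in CD4, or 4 and 0 without JL019-2, and 5 were higher and 0 lower (median log2 change 1.48) in CD8 cells of allogeneic against syngeneic recipients, with Gata3 at 2.47 ± 0.38 (SE) in CD4 (or 1.64 without JL019-2) and Ccr8 at 5.22 ± 0.42 (SE) in CD8 cells. With Treg, 2 were higher and 0 lower (median log2 change 0.49) in CD4 cells against allogeneic recipients without them, namely Areg at 3.02 ± 0.52 (SE) and Batf, and the counts were 2 and 0 without JL027-1. In CD8 cells with and without Treg no gene of any of the 7 lists passed, where 0.0657% of all genes did.

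The genes whose log2 levels ran most like each receptor over the 31 libraries, of 10034 with a mean of at least 100, were found by Pearson's r as a description; all libraries share cell types and conditions, so r reflects group levels. Il1rl1 ran most like Ggta1 (r = 0.934), which makes the α-galactose sugar epitope, and Hif1a (0.934), the hypoxia factor. Il18rap ran most like Plek (0.948) and Pik3ap1 (0.947), and Il12rb2 most like Ino80c (0.947) and Gnpda1 (0.925). Il6ra ran most like Map7 (0.97), Amigo2 (0.965) and Ccr7 (0.96), the homing receptor of naive and central memory T cells. Il27ra was nearest to Il21r (0.924), the IL-21 receptor, Cd6 (0.889) and Il4ra (0.884), the IL-4 receptor chain. Il6st ran most like Tmem260 (0.952), Il18r1 most like Ncald (0.903), Il10ra most like Vipas39 (0.92), and Il12rb1, beside the identical row, like Hic1 (0.937). Among the 9 receptors themselves the highest r was that of Il18rap with Il12rb2 (0.888), above that of the partner chains Il18r1 and Il18rap (0.825), and the lowest was that of Il12rb2 with Il6ra (-0.875).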

How the data were processed

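RNA of sorted donor T cells was made into full-length cDNA (SMARTer v4) and Nextera XT libraries, per the labels' protocols. Per the submitters' processing notes FastQC 0.11.7, kallisto and DESeq2 were used with GRCm38 (mm10). The deposited values are normalised counts per gene, a signal that is not whole numbers. Reads and read depth could not be recovered from them, so no interval of single counts and no detection limit is given. Of the authors' other columns, their comparisons were not used, nor was the unassigned T cell receptor sample. A count test had been planned for raw counts; as the values were normalised, limma 3.58.1 (R 4.3.3, trend and robust) was fitted to log2(value + 1) in 1 model of 10 group means over 31 libraries. The 17 comparisons were adjusted by Benjamini-Hochberg over 16741 genes, with a threshold of 0.05. A filter at a mean of 1 removed 0 genes. Group differences are first minus second group; SE is limma's moderated standard error. Fold changes on this scale understate those of low genes. The fit was tested on simulated data. Python 3.11.15, pandas 2.3.3 and matplotlib 3.10.9 were used for descriptions and plots.

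The genes, gene lists and markers were chosen with earlier results of these data known. Named genes are the 9 receptors, 3 most similar genes each (mean at least 100), up to 2 called genes per list and comparison with the lowest p, and chromosome neighbours. Recipient numbers were examined as pairs: cells of the same recipient deviated together (median r 0.285 over genes, above 0.1 in 14 of 21 pairs), and libraries of different arms with the same number did not (median r 0.0157, above 0.1 in 6 of 19). Alternatives were other pseudocounts, filters, scalings, weights, blocks, a covariate and leaving out each library.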

Additional observations from a re-analysis of the deposited data

Results flagged for a closer look

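In groups of 4 libraries, 6 of the 36 combinations of receptor and group had a library farther from the rest than Dixon's 95% limit allows; chance gives about 1 in 20, and receptors of the same library are not independent. Of these, 5 fell in the Treg-treated CD4 library JL027-1, where Il18rap was at 5055, Il12rb1 at 1073, Il12rb2 at 6099, Il27ra at 6003 and Il10ra at 2176, each the highest of its group. The sixth was Il18r1 in the allogeneic CD4 library JL027-2, at 2761, the lowest of its group. The Treg-treated library JL027-1 had the lowest library mean of its group, 1608; the part of that in its receptor levels was not tested.

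Changes that differed between cell types by limma's test of the difference were those of Il1rl1 after syngeneic transfer (CD8 minus CD4, log2 -4.07), of Il1rl1 in allogeneic against syngeneic recipients (CD8 minus CD4, 1.99), of Il18r1 since day 0 (Treg minus CD4 of Treg-treated recipients, -1.89) and of Il10ra in the same comparison (2.55). The test of the first was added after the values of Il1rl1 had been seen. The second uses the same syngeneic libraries, and against day 0 the allogeneic rise of Il1rl1 was wider in CD4 cells. The first kept its call on leaving out any 1 library (-4.47 to -3.60) and lost it in a fit of only the groups compared.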

How the results depend on the processing

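Counts of receptors called (main value in brackets) moved as follows. In Treg-treated against allogeneic CD4 cells (3) the count was 6 with array weights, 5 with only the groups compared, and 1 with the library mean as covariate or without the 6 libraries of highest mean. In syngeneic CD4 cells against day 0 (2) it was 6 with array weights, 5 with the covariate or quantile normalisation, 4 with median centring or without the 6 libraries, 1 with the label as replicate block and 0 with only the groups compared. In syngeneic CD8 cells against day 0 (5) it was 8 with array weights and 2 with the label block. In Treg against CD4 cells at day 0 (1) it was 4 with array weights, 2 with the covariate, median centring, quantile normalisation or the length trend removed, 3 without the 6 libraries and 6 with only the groups compared. In CD8 against CD4 cells at day 0 (1) it was 4 with array weights, only the groups compared or without the 6 libraries, and 2 with the covariate or the length trend removed; in allogeneic recipients (1) it was 2 with array weights, only the groups compared or without the 6 libraries. The difference of Treg effects (0) had 2 with array weights. The difference of allogeneic effects (1) had 6 with array weights, 5 with the covariate, 2 with median centring, the recipient block or without the 6 libraries, and 0 with quantile normalisation. The difference of changes since day 0 (2) had 6 with array weights, 5 with the covariate, 4 with only the groups compared or without the 6 libraries, and 1 with pseudocount 0.1, the prefix block or the label block. That of syngeneic changes (1) had 3 with array weights or the covariate and 0 with only the groups compared.

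Leaving out 1 library gave 1 to 5 called in Treg-treated against allogeneic CD4 cells, 6 to 7 in allogeneic against syngeneic CD4 cells, 5 to 6 in CD8 cells, 7 to 7 and 7 to 8 against day 0, 1 to 5 and 1 to 4 in syngeneic CD4 and CD8 cells against day 0, 4 to 6 in Treg against day 0, 4 to 6 in Treg against CD4 cells of recipients, and 0 to 3 and 1 to 4 in the differences of allogeneic effects and of changes since day 0. It gave 0 to 0 in CD8 cells with Treg and in the difference of Treg effects, 0 to 1 in CD8 against CD4 cells at day 0 (0 without CD8 JL027), and 1 to 1 in the remaining comparisons. Syngeneic CD4 cells had 5 without JL019-1 and 1 without either day 0 library, and syngeneic CD8 cells 1 without the day 0 library JL019.

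Directions turned for changes that had not passed, apart from Il6st in syngeneic CD8 cells. With the covariate Il6st was at 0.11 and Il27ra at 0.36 in Treg-treated CD4 cells, Il6st at 0.038 in syngeneic CD8 cells against day 0, Il18r1 at 0.034 and Il6st at 0.44 in Treg against day 0, and Il12rb2 at -0.71 in Treg against CD4 cells of recipients (-0.31 without the 6 libraries). Il27ra turned to -0.27 in Treg with quantile normalisation, and in allogeneic against syngeneic CD4 cells to -0.32 with array weights and -0.45 without the 6 libraries or without JL019-2 alone (leaving out 1 library gave -0.45 to 0.83). Il18r1 in Treg was at 0.093 without the recipient library JL027 (range -0.25 to 0.093). The cause was not tested. The recipient as a replicate block changed no call other than those of Il18rap and Il6st in the text. The label block, whose numbers do not pair arms, also lost Il27ra in allogeneic CD8 cells against both controls, Il10ra in Treg against day 0 and in the difference of changes since day 0 (as did the prefix block), Il1rl1 in syngeneic CD4 cells, and Il18rap, Il12rb2 and Il6st in syngeneic CD8 cells, against day 0. Groups of 2 to 4 libraries limit every comparison, a group left with 1 library is assumed to vary like the others, and read depth is unknown.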
